A study of Mus musculus with 9 samples.

Results

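The genes described here are the replication-dependent histone genes and the linker histone genes of the mouse, 73 of the 56980 gene rows of a count table from cultured oligodendrocyte progenitor cells (OPCs), the dividing precursors of myelin-forming cells. They were taken by symbol, in the older nomenclature (Hist1h1c) or the current one (H1f2), with pseudogenes left out: 70 matched by their GENCODE symbol and 3 by their RefSeq symbol alone. The families held 10 linker H1 genes, 20 H2A genes, 18 H2B genes, 12 H3 genes and 13 H4 genes. By chromosome, 56 lay on chromosome 13, 10 on chromosome 3, 3 on chromosome 6, 2 on chromosome 11 and 2 on chromosome 15.

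Each group had 3 libraries, all of primary OPC lines with the genotype Trp53 -/-, kept in SATO medium with 10 ng/mL PDGF-AA. The p53n group carried the label control, with no vehicle named. The BB-p53n cells, which express PDGF-BB, received the vehicle DMSO (BB-p53n DMSO) or 5 µM tazemetostat, an inhibitor of the H3K27 methyltransferase EZH2, for 48 h (BB-p53n EZH2i). The lines also differed in sex-linked genes: Xist, transcribed from the inactive X chromosome, was at 2777.3 to 3100.8 CPM (counts per 1000000) in p53n and 46.2 to 65.0 CPM in BB-p53n DMSO, and Uty, Kdm5d, Eif2s3y and Ddx3y of the Y chromosome were each under 1 CPM in p53n and at 21.3 CPM or more in BB-p53n DMSO. PDGF-BB, the vehicle and this difference between the lines therefore cannot be told apart wherever a BB-p53n group is compared with p53n. These 5 genes also differed between the BB-p53n groups. Their summed level was 189.5 to 239.1 CPM with DMSO and 29.2 to 56.7 CPM with tazemetostat. All 5 were called lower with the inhibitor (adjusted p under 0.05, edgeR). With the trend on GC content and length removed, 4 were still called lower. What this adds to the histone results between those groups was not tested. How PDGF-BB was delivered, and whether the 3 libraries of a group are separate cultures or stem from one clone, is not given in the sources used here, so p-values measure only how far these libraries spread, which may be technical.

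Nucleosomes wrap DNA around an octamer of core histones H2A, H2B, H3 and H4, and a linker histone of the H1 family binds where the DNA enters and leaves. Replication-dependent histone genes lie in clusters and are transcribed mainly in S phase, and their mRNAs end in a conserved stem-loop, bound by the protein SLBP, in place of a poly(A) tail. Replacement histones, among them H1f0 and H1f10 of the linker family and the H3.3 genes H3f3a and H3f3b, are made throughout the cycle from ordinary polyadenylated mRNAs, and H1f0 is known for high levels in slowly dividing and differentiated cells. The libraries were made from polyadenylated RNA, so a count here is a fragment of a polyadenylated transcript of the gene and not a measure of its whole histone mRNA.

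A transcript that ends at the stem-loop carries no poly(A) tail for such a library to capture, so the site is shown for 5 genes that the results turn on and for H4c4, as an example of the form in H4 genes. The letters are from GENCODE transcripts of GRCm38, written as DNA 5′ to 3′, with the stem-loop in capitals and 7 bases on either side.
H1f2: tccaaaaGGCTCTTTTCAGAGCCaccactc
H2ac6: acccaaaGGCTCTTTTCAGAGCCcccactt
H2aw: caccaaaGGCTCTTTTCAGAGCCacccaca
H2bu2: acccaaaGGCTCTTTTCAGAGCCaccttcc
H3c4: ccccaaaGGCTCTTTTCAGAGCCacccccg
H4c4: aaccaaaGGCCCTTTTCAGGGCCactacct
The capital letters, with any base allowed at the 2 paired positions where these sequences differ, were searched on the transcript strand and found in 33 of the 73 genes and in 35 of 21901 coding genes (0.16%). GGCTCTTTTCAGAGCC was the form in 3 H1, 10 H2A, 8 H2B and 5 H3 genes, and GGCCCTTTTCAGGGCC was the form in 7 H4 genes. No exact match was found in H1f0, H1f10, H2bc4, H2bc21, H4c9 or H4c12, which says only that these letters are not in their transcript models.

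Counts were higher where the annotated transcript ran on past the stem-loop, though such models were also longer. Of 16 genes whose model went on for more than 100 bases after it, 14 passed the filter on low counts, and the median over the 16 genes was 559 counts summed over the 9 libraries. Of 17 genes whose model stopped within 100 bases, 3 passed, with a median of 45 counts. The remaining 40 genes had no exact stem-loop, and 14 of them passed, with a median of 35.5 counts. AATAAA, the usual polyadenylation signal, stood in the last 50 bases of 18 of the 73 genes, against 65.7% of coding genes, and these 18 held 87.8% of the counts of all histone genes described here. Most of that came from a few linker genes: of 156737 counts, H1f0 held 84619, H1f2 19839 and H1f10 18747. H1f0 and H1f10 are replacement genes. Among the others, H2bc4 (7843 counts) and H4c9 (4236) had no AATAAA there, while H4f16 (39) and H3c14 (0) had it.

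**Figure D1:**
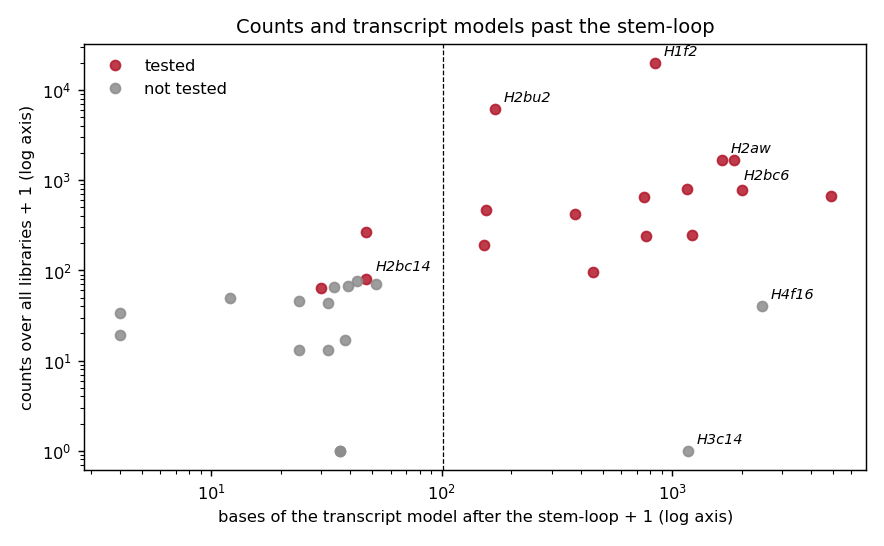
Counts summed over the 9 libraries, plus 1, against the number of transcript bases after the stem-loop, plus 1, for the 33 genes with an exact stem-loop, both on log axes; the dashed line is at 100 bases, and H2ac18 and H2ac19 share the point at 0 counts left of it. Right of the line 14 of 16 genes were tested, and left of it 3 of 17. The median exon length was 1619.5 bases right of the line and 482 left of it.

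In all, 31 genes passed the filter and were tested, 33 had counts but too few to test, and 9 had no count in any library. The 31 tested genes (7 H1, 3 H2A, 9 H2B, 4 H3 and 8 H4) held 155697 of the 156737 counts, or 99.3%, while the 42 others together held between 84 and 154 counts in a library. Of the 9 genes without counts, 5 (H2ac18, H2ac19, H2bc18, H3c13 and H3c14) have exons wholly covered by another annotated gene, and every 150-base stretch of them also occurs in another gene. The other 4 were H1f7, H2ac1, H2bc1 and Hist1h2al, and H1f7, H2ac1 and H2bc1 are known as testis genes. Exons of all 20 H2A genes overlapped those of another annotated gene, and 25 of the 73 genes shared 50% or more of their 150-base stretches with another gene. Only 2 of those 25 were tested, H4c12 and H3c15, and their counts are uncertain for that reason.

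The promoters are shown for 3 genes with different courses: H1f2 and H2ac6, which fell in the first comparison, and H1f0, which rose. They run from 250 bases before to 50 bases after the start in RefSeq on GRCm38.p6, 5′ to 3′ on the gene's strand, and capitals mark matches on either strand to 4 motifs: TATAAA of the TATA box, the pentamer CCAAT, the octamer with the letters ATTTGCAT, and the H1 box with the letters AAACACA.
H1f2, chr13:23738557-23738856, plus strand: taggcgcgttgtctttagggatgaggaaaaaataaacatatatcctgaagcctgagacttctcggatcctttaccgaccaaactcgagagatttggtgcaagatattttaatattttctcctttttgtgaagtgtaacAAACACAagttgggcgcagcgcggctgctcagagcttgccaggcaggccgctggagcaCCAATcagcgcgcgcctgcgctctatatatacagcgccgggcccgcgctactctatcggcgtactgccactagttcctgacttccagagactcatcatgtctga
H2ac6, chr13:23683910-23684209, minus strand: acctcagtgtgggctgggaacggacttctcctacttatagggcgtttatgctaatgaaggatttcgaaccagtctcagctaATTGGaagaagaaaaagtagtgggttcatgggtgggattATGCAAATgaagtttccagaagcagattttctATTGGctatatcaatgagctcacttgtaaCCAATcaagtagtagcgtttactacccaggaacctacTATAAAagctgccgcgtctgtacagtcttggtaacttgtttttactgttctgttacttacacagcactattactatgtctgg
H1f0, chr15:79027962-79028261, plus strand: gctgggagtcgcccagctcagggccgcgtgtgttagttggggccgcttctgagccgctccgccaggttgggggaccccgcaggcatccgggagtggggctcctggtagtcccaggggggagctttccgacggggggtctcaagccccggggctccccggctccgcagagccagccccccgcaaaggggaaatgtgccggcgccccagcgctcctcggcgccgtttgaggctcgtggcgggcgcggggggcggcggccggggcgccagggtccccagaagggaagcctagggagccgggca
The H1f2 window held an H1 box at -112 and a CCAAT at -54 from the start. The H2ac6 window held 3 CCAAT matches, an octamer at -130 and a TATAAA at -32, and H2ac6 lies head to head with H2bc4, with 250 bases between their starts. No match to the 4 motifs was found in the windows of H1f0 or H1f10.

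RefSeq gave a promoter for 66 of the 73 genes, and no window had different motifs overlapping. CCAAT was in 54 of the 66 (81.8%), against 37.4% of all 32851 promoter windows, and in every H2A, H2B and H3 gene with a window but in 3 of 12 H4 genes. TATAAA was in 35 (53%, against 13.6%). The octamer was in 14 (21.2%, against 1.74%), 7 of them H2A and 7 H2B genes. The H1 box was in 9 (13.6%, against 7.18%), of which 5 were H1 genes. Many H2A and H2B genes stand head to head within 1000 bases, so that their windows share sequence and are not independent.

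Total counts ranged from 19471768 to 34557109 a library, and 3 counts, the limit that a count of 0 allows, corresponded to 0.087 to 0.154 CPM for counting error alone. Trp53 was counted at 6.77 to 8.33 CPM in p53n and 12.02 to 15.2 CPM in the BB-p53n groups, and the gene total does not show which exons were deleted. Pdgfb, the mouse gene of the PDGF-B chain, had at most 8 counts in any library, and whether the construct would be counted there is not known. Of the OPC markers, Pdgfra was at 1404 to 1583 CPM in p53n and 485 to 996 CPM in the BB-p53n groups, Olig2 was above 500 CPM in each library, and Sox10 was at 1.87 to 2.40 CPM in p53n against 285 to 470 CPM in the BB-p53n groups, so the p53n libraries lacked most of a defining marker of the lineage. The list went both ways. Of its 9 tested genes 3 were higher and 5 lower in BB-p53n DMSO against p53n, beside 35.3% and 34.0% of all tested genes. With tazemetostat against DMSO 4 were higher and 4 lower, beside 37.3% and 35.6%. After correction these were 1 and 8, beside 28.6% and 29.2%. All 10 summed to 8043 to 8609 CPM for p53n, 6248 to 6314 for BB-p53n DMSO and 4733 to 5029 for BB-p53n EZH2i. Summed microglia markers stayed at or under 2.84 CPM and summed mural and fibroblast markers at or under 3.25 CPM, while the 10 neuron markers summed to 2080 to 2119 CPM for p53n, 1704 to 1863 for BB-p53n DMSO and 579 to 711 for BB-p53n EZH2i. Of the lists for neighbouring cell types, all 8 tested oligodendrocyte markers fell in BB-p53n DMSO against p53n (median log2 fold change -2.34, summed level 755 to 799 CPM against 177 to 192 CPM, and 291 to 324 CPM in BB-p53n EZH2i), as did 9 of 10 astrocyte markers, with 1 higher (median -2.84, summed level 1496 to 1669 CPM against 1047 to 1054 CPM, and 824 to 859 CPM in BB-p53n EZH2i). Of the 9 tested neuron markers 6 were lower and 1 higher there (median -0.47). Over all tested genes 34.0% were called lower in that comparison. These lists fell in the same comparison as most of the histone genes called there, and the part of any of these shifts in the histone results was not tested. Mitochondrial genes took 5.28% ± 0.716 of the counts for p53n, 2.54% ± 0.0917 for BB-p53n DMSO and 1.43% ± 0.101 for BB-p53n EZH2i (SD, n = 3).

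Adjusted p-values are from edgeR's quasi-likelihood test over 17001 genes, with a call at 0.05, and log2 fold changes carry their standard error (SE). Fold changes were also computed after taking out, library by library, the trend of counts on exon length and GC content, and these are called corrected values here. These matter because the histone genes are short and GC-rich. The median exon length was 820 bases for tested histone genes against 3940 over all 17001 tested genes. The median GC content was 53.7% against 49.3% over the tested genes with a known GC content. The trend itself was measured in the 12514 of these genes with a mean log2 CPM above 1, none of them an independent replicate. There, GC content and fold change had a Spearman's rho of 0.14 for BB-p53n DMSO over p53n. It was 0.73 for BB-p53n EZH2i over BB-p53n DMSO and 0.57 for BB-p53n EZH2i over p53n.

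On a scale per length (FPKM, CPM divided by the exon length in kilobases), H1f0 was the highest histone gene in each group, at 115 ± 6.53 for p53n, 158 ± 7.96 for BB-p53n DMSO and 254 ± 22.0 for BB-p53n EZH2i (SD, n = 3). H1f2 came second in p53n at 61.1 ± 0.263 FPKM, ahead of H2bu2 at 52.5 ± 6.89, H2bc4 at 35.3 ± 5.24 and H1f10 at 29.9 ± 3.96, of which H2bc4 and H1f10 did not differ beyond their spread. In BB-p53n DMSO, H1f10 was second at 52.3 ± 3.801 FPKM, and H2bu2 at 26.8 ± 0.519 and H1f2 at 26.1 ± 1.72 did not differ beyond their spread. In BB-p53n EZH2i the order was H1f0, H1f10 at 121 ± 10.8 and H1f2 at 83.6 ± 0.291. The highest core histone genes in every group were H2bu2, H2bc4 and H4c9, and H4c12 and H2bc21 followed under 13 FPKM.

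**Figure D2:**
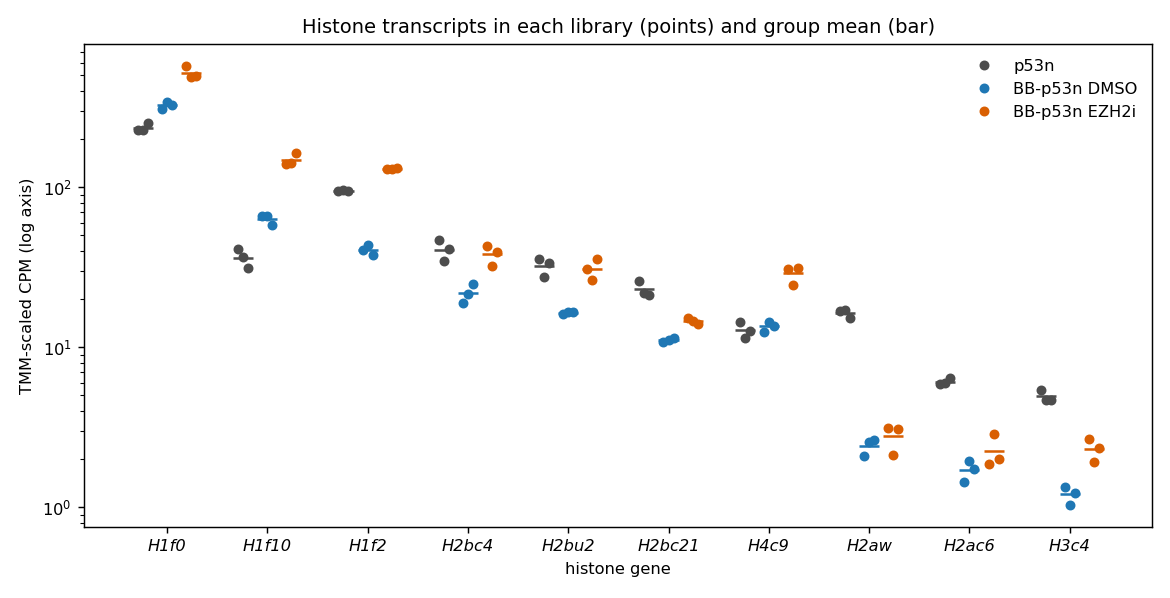
TMM-scaled CPM (log axis) of 10 histone genes in each of the 9 libraries; points are libraries and short bars the mean of 3. H1f0 and H1f10 climb from p53n to BB-p53n EZH2i, whereas H1f2, H2bc4, H2bu2, H2bc21, H2aw, H2ac6 and H3c4 are lowest in BB-p53n DMSO by their means.

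The first comparison asked what accompanies PDGF-BB expression in p53-null OPCs. Polyadenylated transcripts of 13 of the 24 tested core histone genes fell in BB-p53n DMSO, by 1.88-fold for H2bc4 to 6.74-fold for H2aw, and so was the linker gene H1f2. The replacement linker genes H1f0 and H1f10 were higher. Of the 31 tested genes 3 were called higher, 14 lower and 14 neither, where 69.3% of all tested genes were called, 35.3% higher and 34.0% lower. The median log2 fold change of the 31 was -0.85, beside -0.02 over all tested genes. In the corrected fit 2 of the 31 were higher and 15 lower with a median of -1.06, where 72.0% of all genes were called, 32.1% higher and 39.9% lower. The groups did not overlap for 18 of the 31 genes, with BB-p53n DMSO above in 3 and below in 15, against 76.1% of all genes, 38.4% above and 37.7% below.

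Among the linker histones, H1f0 (GRCm39, chr15:78912650-78914704) stood at 228, 229 and 252 CPM in p53n and at 308, 340 and 327 CPM in BB-p53n DMSO. Every BB-p53n DMSO library was above every p53n library, a 1.38-fold difference (log2 0.46 ± 0.07 SE, adjusted p = 1.1e-05, edgeR). H1f10, the other replacement linker gene (chr6:87957403-87958619), stood at 41.1, 36.6 and 31.4 CPM in p53n and at 66.3, 66.3 and 58.3 CPM in BB-p53n DMSO. It rose by 1.75-fold (log2 0.81 ± 0.09, adjusted p = 2.3e-07, edgeR), again with no overlap of the groups.

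H1f2 (chr13:23922791-23924350), the most abundant H1 transcript of the replication-dependent cluster here, went the other way. Its 3 p53n libraries lay together at 95.2, 95.7 and 94.9 CPM, and its BB-p53n DMSO libraries at 40.8, 43.3 and 38.0 CPM. That is a fall of 2.34-fold (log2 -1.23 ± 0.07 SE, adjusted p = 2.1e-12, edgeR), and the correction left it at -1.39. The 4 other tested cluster H1 genes were not called: H1f4 had a log2 fold change of 0.34 ± 0.20, H1f1 0.30 ± 0.42, H1f5 -0.05 ± 0.37 and H1f3 -0.08 ± 0.21. H1f6, the testis H1, had 16 counts over all libraries and was not tested.

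H2A and H2B form the dimers of the nucleosome, and 2 of 3 tested H2A genes fell. H2aw (chr11:58845511-58847656), an H2A gene of the small cluster on chromosome 11, had 16.8, 17.1 and 15.2 CPM in p53n and 2.09, 2.58 and 2.62 CPM in BB-p53n DMSO. This was the largest fold change of the 31 genes, 6.74-fold lower (log2 -2.75 ± 0.15 SE, adjusted p = 1.7e-12, edgeR), although 33% of its exon bases overlap other genes and the counting did not use strand. H2ac6 went from 5.94, 6.00 and 6.39 CPM to 1.43, 1.95 and 1.73 CPM (log2 -1.84 ± 0.19, adjusted p = 4.8e-08).

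Of the 9 tested H2B genes, 6 fell. H2bc4 (chr13:23868182-23876891), the divergent neighbour of H2ac6, stood at 46.8, 34.7 and 41.0 CPM in p53n and at 18.9, 21.5 and 25.01 CPM in BB-p53n DMSO (log2 -0.91 ± 0.13 SE, adjusted p = 1.1e-05, edgeR). H2bu2 (chr11:58839746-58840359), which lies near H2aw, went from 35.4, 27.4 and 33.8 CPM to 16.1, 16.6 and 16.6 CPM (log2 -0.97 ± 0.11, adjusted p = 1.4e-07). H2bc21 (chr3:96128435-96131054), on another chromosome and with no stretch shared with another gene, went from 26.0, 21.8 and 21.2 CPM to 10.8, 11.1 and 11.4 CPM (log2 -1.05 ± 0.10, adjusted p = 1.6e-08). The groups of all 3 genes were apart, with BB-p53n DMSO below. The further H2B genes that fell were H2bc6 (-1.19), H2bc8 (-1.67) and H2bc15 (-1.07). H2bc15, with 119 counts in all (adjusted p = 0.032, edgeR), lost the call with the replicate block, without a filter, and without p53n replicate 2 or 3 or any 1 BB-p53n DMSO library. H2bc14 was called higher at 1.33 on the log2 scale (adjusted p = 0.0493), on 80 counts in all, and that call was lost with the correction, with the DESeq2 test and without any 1 library other than p53n replicate 1.

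H3 and H4 form the tetramer at the centre of the nucleosome. H3c4 (chr13:23759937-23761185) stood at 5.38, 4.70 and 4.71 CPM in p53n and at 1.34, 1.04 and 1.23 CPM in BB-p53n DMSO, 4.09-fold lower and without overlap (log2 -2.03 ± 0.21 SE, adjusted p = 2.3e-08, edgeR). H3c15 fell too (log2 -1.92), and H3c8 (-0.23 ± 0.31) and H3c3 (-0.97 ± 0.55) were not called. Among H4 genes H4c12 (-1.55), H4c14 (-1.59) and H4c11 (-1.18) fell. H4c9 (chr13:22224806-22225532), the most abundant H4 transcript, was 14.3, 11.5 and 12.7 CPM in p53n and 12.5, 14.5 and 13.6 CPM in BB-p53n DMSO; the groups overlapped and the log2 fold change was 0.07 ± 0.12.

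By chromosome, 9 of the 24 tested histone genes on chromosome 13 were called lower (37.5%, beside the 34.0% of all genes), 1 higher and 14 neither, while all 3 on chromosome 3 and both on chromosome 11 were called lower. The median log2 fold change over all tested genes was 0.38 on chromosome 11, -0.18 on chromosome 13 and -0.11 on chromosome 3, while the tested histone genes there had medians of -1.86 (2 genes), -0.61 (24 genes) and -1.59 (3 genes).

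**Figure D3:**
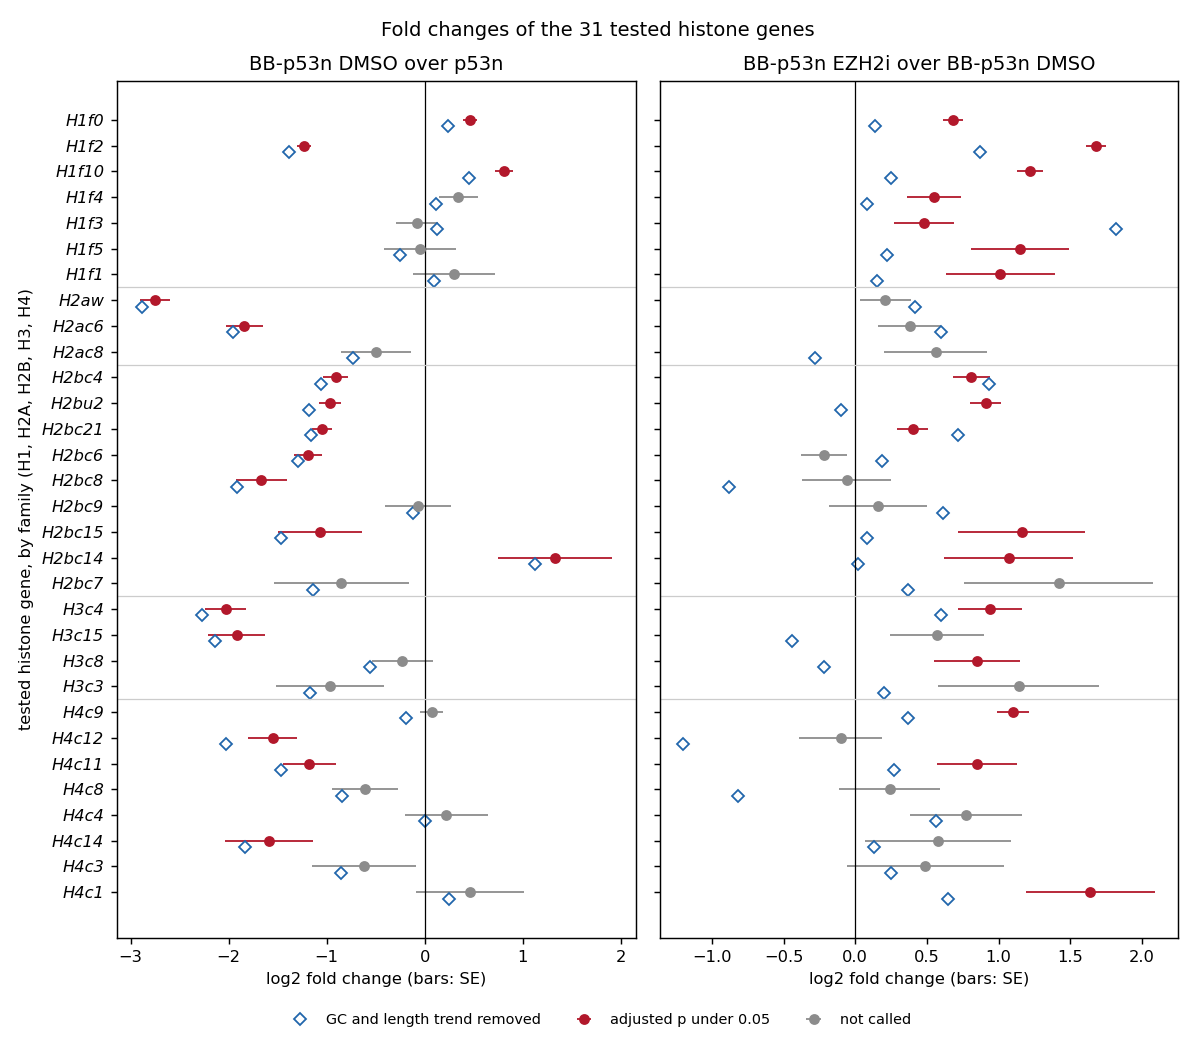
Log2 fold changes of the 31 tested histone genes, ordered by family and then by counts, for BB-p53n DMSO over p53n (left) and BB-p53n EZH2i over BB-p53n DMSO (right); filled points carry SE bars and are red where the adjusted p is under 0.05, and open diamonds are the values with the GC and length trend removed. The diamonds stay near the points on the left (median -1.06 against -0.85) and move toward or past 0 for many genes on the right (median 0.22 against 0.77).

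The second comparison asked what EZH2 inhibition does in PDGF-BB expressing cells, and it shares the BB-p53n DMSO libraries with the first. As counted, transcripts of all 7 tested linker genes and of 10 of the 24 tested core genes were higher with tazemetostat, with a 3.21-fold rise of H1f2 as the largest among the abundant ones. Of the 31 tested genes 17 were called higher, 0 lower and 14 neither, where 72.9% of all tested genes were called, 37.3% higher and 35.6% lower. None of the 31 was lower at an unadjusted p of 0.05 in edgeR, 18 were higher there, and DESeq2 called 15 higher and 0 lower. The median log2 fold change was 0.77, beside 0.02 over all genes. The groups did not overlap for 16 of the 31 genes, each time with BB-p53n EZH2i above, against 75.3% of all genes, 38.4% above and 36.9% below.

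Fewer of these calls were made with the GC and length trend removed. In that fit 57.8% of all genes were called, 28.6% higher and 29.2% lower, and of the 31 histone genes 8 were higher and 2 lower, with a median of 0.22. Of the 17 calls 7 were kept, H1f2, H1f3, H1f10, H2bc4, H2bc21, H3c4 and H4c9, and H2bu2 and H3c8 turned to negative values.

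H1f2 was the clearest case. Its BB-p53n DMSO libraries at 40.8, 43.3 and 38.0 CPM were followed by 130.2, 130.1 and 131 CPM in BB-p53n EZH2i, all above the highest p53n library. The log2 fold change was 1.68 ± 0.07 (SE, adjusted p = 9.1e-14, edgeR), and 0.87 with the trend removed (adjusted p = 1.8e-10), a little over 50% of the uncorrected log2 value. H1f10 went from 66.3, 66.3 and 58.3 CPM to 139, 141 and 163 CPM, a 2.32-fold rise (log2 1.22 ± 0.09, adjusted p = 4.7e-10). Its transcript has a GC content of 71.3%, the highest of the named linker genes, and the corrected log2 fold change was 0.25 (adjusted p = 0.00296).

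H1f0 went from 308, 340 and 327 CPM to 573, 491 and 498 CPM, without overlap of the groups (log2 0.68 ± 0.07 SE, adjusted p = 4.3e-08, edgeR). With the trend removed its log2 fold change was 0.14 and the call was lost (adjusted p = 0.0742). The 4 scarcer cluster H1 genes were called higher as counted: H1f5 at 1.15 ± 0.34 on the log2 scale, H1f1 at 1.01 ± 0.38, H1f4 at 0.55 ± 0.19 and H1f3 at 0.48 ± 0.21. Only H1f3, whose model is 7425 bases long with a GC content of 39.8%, kept the call under the correction, where its value moved to 1.82. Of these 4, H1f1, H1f3 and H1f4 each lost the call when single libraries were left out, all of them without BB-p53n DMSO replicate 3.

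Core histone genes of several families rose as well. H2bc4 went from 18.9, 21.5 and 25.01 CPM to 42.9, 32.4 and 39.3 CPM (log2 0.81 ± 0.13 SE, adjusted p = 3.1e-05, edgeR), and the correction left it at 0.93. H2bc21 went from 10.8, 11.1 and 11.4 CPM to 15.2, 14.7 and 14.03 CPM (log2 0.40 ± 0.11, adjusted p = 0.00219; corrected 0.72). H3c4 went from 1.34, 1.04 and 1.23 CPM to 2.66, 1.92 and 2.33 CPM (log2 0.94 ± 0.22, adjusted p = 0.00079; corrected 0.60). For these 3 genes every BB-p53n EZH2i library was above every BB-p53n DMSO library, and each was called in either fit.

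H4c9, which had not differed between the first 2 groups, went from 12.5, 14.5 and 13.6 CPM to 30.9, 24.5 and 31.5 CPM. Its rise was 2.15-fold (log2 1.10 ± 0.11 SE, adjusted p = 2.9e-08, edgeR) and 0.37 on the corrected log2 scale (adjusted p = 0.00395). H2bu2 went from 16.1, 16.6 and 16.6 CPM to 30.8, 26.5 and 35.5 CPM (log2 0.91 ± 0.11, adjusted p = 3.2e-07), but its corrected value was -0.10 (adjusted p = 0.375), so no direction can be given for it. H3c8 (0.85, corrected -0.22) shared that course.

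Several genes that fell in the first comparison were not called in the second. H2aw stayed at 3.13, 2.13 and 3.09 CPM, overlapping BB-p53n DMSO (log2 0.21 ± 0.18), and H2bc6 was at 4.12, 4.47 and 4.66 CPM against 4.33, 6.16 and 4.87 (log2 -0.22 ± 0.16). H2ac6 at 1.86, 2.88 and 2.00 CPM was not called as counted (log2 0.38 ± 0.22) and was called higher after correction (0.60, adjusted p = 0.0245). H4c12 and H2bc8 were called lower only with the trend removed (-1.20 and -0.88), against -0.10 and -0.06 as counted, and these are short models of 312 and 618 bases that share 53.4% and 39% of their 150-base stretches with other genes.

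Set against p53n, the cells with both PDGF-BB and tazemetostat had higher transcripts of 6 of the 7 tested linker genes as counted, and of the core genes 4 were higher and 9 lower. Of the 31 tested genes 10 were higher, 9 lower and 12 neither, where 82.0% of all genes were called, 40.3% higher and 41.7% lower, and the median log2 fold change was 0.09. The groups did not overlap for 20 genes, 11 above and 9 below, against 82.2% of all genes, 40.3% above and 41.9% below. H1f10 was 4.06-fold higher (log2 2.02 ± 0.09 SE, adjusted p = 1.1e-13, edgeR) and H1f0 2.21-fold higher (1.14 ± 0.07, adjusted p = 8.3e-12), and both stayed higher after correction (0.71 and 0.38). The 4 core genes called higher were H4c9 (1.18, adjusted p = 8.5e-09) and the scarce H4c1 (2.09), H2bc14 (2.39) and H4c4 (0.99), and none of these calls was kept after correction, where H4c9 had 0.18.

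H2aw was 5.82-fold lower (log2 -2.54 ± 0.16, adjusted p = 5.1e-12, edgeR), H2ac6 2.75-fold lower (-1.46 ± 0.20), H3c4 2.13-fold lower (-1.09 ± 0.20) and H2bc21 1.57-fold lower (-0.65 ± 0.10). H2bc4 (-0.09 ± 0.13, corrected -0.13) was not called in either fit, and H2bu2 (-0.06 ± 0.11) was not called as counted and was lower after correction (-1.28 ± 0.10, adjusted p = 6.0e-11). H1f2 was 1.37-fold higher as counted (0.45 ± 0.07, adjusted p = 2.9e-06) and lower with the trend removed (-0.52, adjusted p = 8.1e-08). In the corrected fit 78.5% of all genes were called, 35.4% higher and 43.2% lower, and 3 of the 31 histone genes were higher and 16 lower, with a median of -0.78.

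The split between H1f0 with H1f10 and the rest showed in the shares of all counts, which no test was made of. The 73 genes summed to 569.1 ± 18.5 CPM of the whole library, without TMM scaling, for p53n, 514.2 ± 19.5 for BB-p53n DMSO and 936 ± 73.0 for BB-p53n EZH2i (SD, n = 3). H1f0 and H1f10 alone took 283 ± 12.8, 382 ± 15.5 and 655 ± 56.4 CPM, with no overlap between groups. The other 71 genes took 286 ± 13.8 CPM for p53n, 132 ± 4.05 for BB-p53n DMSO and 281 ± 17.5 for BB-p53n EZH2i, so that p53n and BB-p53n EZH2i overlapped and BB-p53n DMSO stood below both. These sums carry the GC and length trend. For the 29 tested genes among the 71, the median log2 fold change of BB-p53n EZH2i over p53n was 0.06 as counted, with 8 higher and 9 lower, and -0.78 after correction, with 1 higher and 16 lower. Without H1f2 as well, the shares were 188 ± 14.3, 92.2 ± 3.48 and 153 ± 14.8 CPM. In bulk RNA fewer cells that make a transcript and less of it per cell cannot be told apart.

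**Figure D4:**
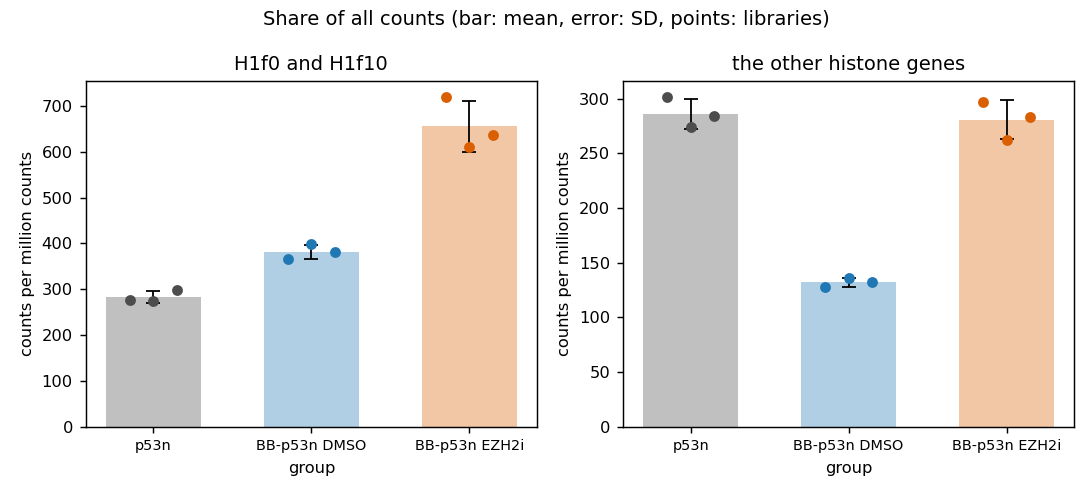
CPM of the whole library summed over H1f0 with H1f10 (left) and over the other 71 histone genes (right); bars are means of 3 libraries, error bars SD, and points single libraries. On the left the groups rise from 283 to 655 without overlap, and on the right BB-p53n DMSO (132) lies below p53n (286) and BB-p53n EZH2i (281); the sums are not corrected for GC content and length.

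By summed counts, without correction, the families differed in their course. H2A genes took 26.2 ± 0.197 CPM for p53n, 5.66 ± 0.613 for BB-p53n DMSO and 7.45 ± 0.892 for BB-p53n EZH2i (SD, n = 3). H2B genes took 118.5 ± 11.95, 57.2 ± 4.01 and 91.4 ± 9.98 CPM, and H3 genes 11.02 ± 1.03, 3.73 ± 0.739 and 7.02 ± 0.896. H4 genes took 25.1 ± 2.68, 18.7 ± 0.657 and 36.6 ± 3.93 CPM, and were the core family with its highest share in BB-p53n EZH2i. That order holds for the counts as deposited: after correction, 0 of the 8 tested H4 genes were higher than in p53n and 4 were lower (median log2 fold change -0.90). In the second comparison the median of the tested genes went after correction from 0.81 to 0.19 for H2B and from 0.90 to -0.01 for H3. It went from 0.38 to 0.42 for H2A and from 0.68 to 0.26 for H4. Few genes weighed heavily in these sums. H4c9 alone held 4236 of the 6215 H4 counts. H2aw held 1684 and H2ac6 780 of the 3011 H2A counts, and only 3 of the 20 H2A genes were tested. Of 20716 H2B counts, H2bc4 held 7843, H2bu2 6143 and H2bc21 3833.

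Within the linker family the makeup shifted as counted. Per length, H1f0 made up 54.9% ± 2.45 of the summed H1 FPKM for p53n, 65.8% ± 2.00 for BB-p53n DMSO and 54.4% ± 2.99 for BB-p53n EZH2i (SD, n = 3). H1f2 made up 29.2% ± 0.515, 10.8% ± 0.407 and 18.0% ± 0.700, with no overlap between groups. H1f10 made up 14.3% ± 2.01, 21.8% ± 1.402 and 26.1% ± 2.51. H1f1, H1f3, H1f4 and H1f5 were each under 1% in every group mean. These shares are not corrected for GC content and length. The GC content was 71.3% for H1f10, 55.1% for H1f2 and 52.1% for H1f0. The 7 tested linker genes had a median log2 fold change of 1.01 in the second comparison, and 0.22 after correction. The rise of H1f10 there was also smaller after correction, as given above.

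**Figure D5:**
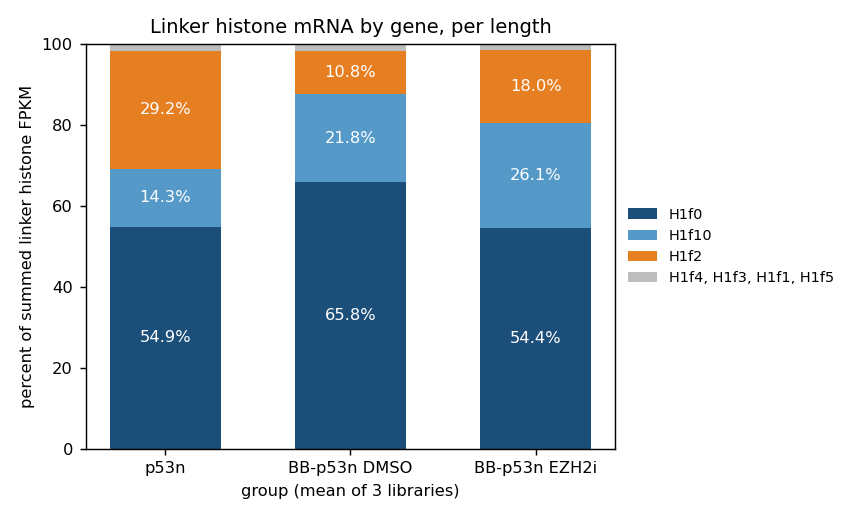
Percent of the summed FPKM of the linker histone genes held by each gene, as the mean of 3 libraries per group. The share of H1f2 is 29.2% for p53n, 10.8% for BB-p53n DMSO and 18.0% for BB-p53n EZH2i, and that of H1f10 goes from 14.3% to 26.1%. The shares are not corrected for GC content and length.

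For H3 the polyadenylated messages, as far as they were counted, came almost wholly from the replacement genes. The cluster H3 genes made up 6.30% ± 0.834 of the summed FPKM of cluster and H3.3 genes for p53n, 2.01% ± 0.455 for BB-p53n DMSO and 4.57% ± 0.234 for BB-p53n EZH2i (SD, n = 3). Cluster H3 genes also share sequence. Every 150-base stretch of H3c13 and H3c14, which had no counts, occurs in another gene. H3c10, H3c15 and H3c11 shared 90.5%, 59.4% and 52.7% of theirs, and the rest from 15.6% (H3c3) to 49.5% (H3c2). What this takes from the cluster share was not tested. The shares also carry the GC and length trend. For the 4 tested cluster H3 genes, the median log2 fold change of BB-p53n EZH2i over BB-p53n DMSO was 0.90 as counted. After correction it was -0.01, with 1 gene higher and 0 lower, so the larger share in BB-p53n EZH2i holds only as counted. H3f3b stood at 375, 358 and 393 CPM for p53n, at 570, 587 and 566 CPM for BB-p53n DMSO and at 529, 418 and 448 CPM for BB-p53n EZH2i. It rose in the first comparison (log2 0.61 ± 0.08 SE, adjusted p = 5e-07, edgeR) and had -0.30 ± 0.08 in the second, which turned to 0.27 after correction. H3f3a was not called in the first (-0.13 ± 0.11) and had -0.28 ± 0.11 in the second, with 0.36 after correction.

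Other genes that bear on histone supply were taken from lists, which like the histone genes were drawn up with earlier results of these data known. The counts of these lists stand beside 35.3% higher and 34.0% lower over all tested genes in the first comparison. In the second, those shares were 37.3% and 35.6%, and 28.6% and 29.2% after correction. All 30 S phase genes rose in the first comparison, with a median log2 fold change of 2.25, for example Mcm3, a subunit of the replicative helicase (3.15), and Rrm2, of the ribonucleotide reductase that makes DNA precursors (3.23). All 25 G2 and M phase genes rose too (median 2.01). In the same libraries 14 of the 31 histone genes were lower. In the second comparison 21 of the 30 S phase genes were higher and 6 lower (22 and 2 after correction), and of the G2 and M phase genes 12 were higher and 12 lower.

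Slbp, whose protein binds the stem-loop, stood at 24.4, 22.0 and 23.1 CPM in p53n and at 71.1, 71.8 and 70.2 CPM in BB-p53n DMSO (log2 1.62 ± 0.09 SE, adjusted p = 2.9e-12, edgeR). In BB-p53n EZH2i it was at 63.9, 48.3 and 52.0 CPM (log2 -0.37 ± 0.09, but 0.33 after correction). Of the 19 genes of histone mRNA processing and transcription 12 were higher and 1 lower in the first comparison (median 0.42), among them Lsm11 of the U7 particle that cuts histone pre-mRNA (2.03) and Upf1, which acts in their decay (0.87). In the second, 9 were higher and 9 lower (8 and 7 after correction). Npat, the coactivator of histone gene transcription, fell in the second comparison from 79.0, 66.0 and 68.0 CPM to 24.97, 14.2 and 17.7 CPM (log2 -1.89 ± 0.16, adjusted p = 1.4e-06; corrected -0.70), and Casp8ap2, a protein of the histone locus body, fell as well (-2.25; corrected -1.10).

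Histone chaperones carry new histones to DNA, and their list also held genes of H4 acetylation. Of its 26 genes 22 rose and 1 fell in the first comparison (median 0.55). Chaf1b, of the chromatin assembly factor CAF-1, lay between 10.2 and 11.2 CPM for p53n and was at 83.3, 91.5 and 89.5 CPM for BB-p53n DMSO (log2 3.03 ± 0.08 SE, adjusted p = 4.5e-17, edgeR). Chaf1a of the same complex had 2.32. Nasp, a chaperone of H3 and H4 and of linker histones, had 1.14 in the first comparison and -0.93 in the second, which turned to 0.52 after correction. In the second comparison 14 of the 26 were higher and 11 lower (12 and 6 after correction).

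Of 9 replacement and variant histone genes 6 were higher and 0 lower in the first comparison (median 0.61), with the same 0 lower at an unadjusted p of 0.05 in edgeR and in DESeq2. H2ax, the variant that is phosphorylated at DNA breaks, stood at 70.0, 66.2 and 57.8 CPM for p53n, at 197, 199 and 199.5 CPM for BB-p53n DMSO and at 379, 410.5 and 456 CPM for BB-p53n EZH2i. Its log2 fold changes were 1.62 ± 0.08 and 1.07 ± 0.08, and the second was 0.10 after correction and no longer called. Cenpa, the centromeric H3 variant, rose by 1.85 and then by 0.58 (corrected 0.72). Ezh2, the target of the inhibitor, was at 110 to 116 CPM for p53n, 170 to 173 CPM for BB-p53n DMSO and 107 to 116 CPM for BB-p53n EZH2i, with log2 fold changes of 0.61 and -0.62, the latter 0.12 after correction.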

How the data were processed

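The authors deposited raw, unscaled counts of fragments for each gene. They were made, per the file headers, with featureCounts 1.6.3 over exons of Ensembl release 108 on GRCm39, with both ends mapped, a mapping quality of at least 20 and no strand option. The submitters' processing notes also name Subread and Trimmomatic. Symbols were joined from GENCODE and RefSeq (91.4% of rows had a GENCODE symbol), and no column was left out. Counts were TMM-scaled and tested with edgeR 4.0.16 (R 4.3.3; filterByExpr, robust quasi-likelihood, group as the only term, all 9 libraries, Benjamini-Hochberg over all 17001 genes). The corrected fit removed each library's spline trend (5 degrees of freedom) on GC content and length through offsets, in 16652 genes. FPKM used the deposited exon length. On simulated counts the test recovered 98.3% of 2-fold changes in the first comparison (16521 genes), 95.8% in the second (16566 genes) and 89.4% in the third (16527 genes). These rates rest on 60, 71 and 66 changed genes. They do not carry over to scarce histone genes such as H3c3, not called in the first comparison at -0.97 ± 0.55 SE on 68 counts. Alternatives were DESeq2 1.42.0, its size factors, no filter, fits of the compared groups only, a replicate block, and each library left out. Named genes were every linker gene with 10 or more counts, the 3 most abundant of each core family per length, and the 4 called genes with the smallest adjusted p per comparison and direction and, from each list, the 3 with the smallest adjusted p; H2ac7, H2bc7, H2bc8, H2bc15, H3c3, H4c1, H4c4, H4c8, H4c14, Npat, Casp8ap2, the sex-linked genes and the genes without counts fall outside that rule and were chosen after their values were seen. The histone genes, the lists and the tests were chosen with earlier results of these data known.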

Additional observations from a re-analysis of the deposited data

How the results depend on the processing

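Under the alternatives run, no count of called histone genes in the first comparison moved by more than 1.5 times, and its median log2 fold change, -0.85 as reported, was -1.06 with the GC and length trend removed, -1.05 with that and the replicate block, -0.75 with the replicate block, and -0.85 to -0.71 with single libraries left out. In the second comparison the 17 higher, 0 lower and median 0.77 became 8, 2 and 0.22 with the trend removed, 8, 3 and 0.21 with that and the replicate block, and 15, 2 and 0.67 without a filter; a fit of the compared groups only gave a median of 0.59, and single libraries left out gave 0 to 1 lower, the 1 being H2ac7. In the third, 10 higher, 9 lower and a median of 0.09 became 3, 16 and -0.78 with the trend removed, 3, 16 and -0.66 with the block as well, and 14 lower without a filter, and the median ranged from -0.09 to 0.28 with single libraries left out. Among histone genes chosen by the naming rule, values that turned sign with the trend removed and were called in at least 1 of the fits were, without and with the replicate block, H2bu2 (-0.10 and -0.11) and H3c8 (-0.22 and -0.22) in the second comparison, and H1f2 (-0.52 and -0.52), H2ac8 (-1.01 and -1.03), H3c8 (-0.78 and -0.78) and, without the block, H1f5 (-0.03) in the third; outside the rule, H2bc15 went from 0.09 to -1.39 in the third, called lower. H4c8, also outside the rule, went from 0.24 to -0.82 in the second and was called lower only with the replicate block as well. Values called in none of these fits turned sign too, in the first comparison for H1f3 and H4c9, in the second for H2ac8, H2bc6 and H3c15 and in the third for H2bc7 and H3c3. Beyond the trend, the cause was not tested. The summed level for p53n was 600.9 CPM when mitochondrial genes were left out of the library total. Whether replicate numbers pair the samples was not settled. Same-numbered libraries of BB-p53n DMSO and BB-p53n EZH2i correlated at 0.40, 0.31 and -0.06, and different-numbered ones at -0.38 to 0.10. For p53n and BB-p53n DMSO these were -0.16, 0.00 and -0.05 for the same number, and -0.13 to 0.17 for different numbers. The replicate block alone gave 2 higher and 13 lower in the first comparison, 16 and 0 in the second, and 10 and 8 in the third. Of the values of single named genes under an alternative, 916 kept direction and call, 68 lost the call, 12 gained one and 11 were those that turned sign with a call. Tested genes under 100 counts had standard errors of 0.45 or more on the log2 scale, and the 42 untested genes could not be compared at this depth.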
